A study of Mus musculus with 9 samples.

Results

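Complement is a set of plasma and cell surface proteins that marks cells and particles for removal. In all, 9 genes of this system were examined in samples enriched for mature megakaryocytes (mMKs) of control and irradiated mice. They were chosen by name, with earlier results of these data known: C1qa, C1qb, C1qc, C1ra, C3, C4b, Cfb, Cfp and C3ar1. All 9 are on the array, which carries 37316 named genes, and all 9 were among the 29410 genes tested. RNA from mMKs of bone marrow was hybridised to Agilent 1-colour arrays in 3 groups of male mice with 3 arrays each, 9 arrays in all. The groups were controls (Ctrl) and mice at 1 and 3 days post irradiation (dpi). The irradiated mice had received a single total body dose of 5 Gy of gamma rays, and per the study's methods controls were sham-irradiated. The methods describe wild-type C57BL/6 mice and an enrichment of mMKs on CD41 and then on CD42d by positive selection, so other cells that carry or bind these markers could remain. Transcripts of neutrophil and macrophage markers were bright in Ctrl, as given below. The study counts mice as n for its array data, while the labels do not tie each array to a mouse, so the p-values are read as the spread between arrays. The age of these mice is not given in the sources used here.

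In the classical pathway, C1q binds antibody complexes or dying cells and activates the proteases C1r and C1s, which cleave C4 and C2. The alternative pathway runs on C3, factor B and factor D, is stabilised by properdin, and amplifies the deposition of C3 fragments. The small fragment C3a is sensed by the receptor encoded by C3ar1. The liver makes much of the plasma complement, whereas C1q comes mainly from macrophages and related myeloid cells, and properdin from leukocytes.

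Levels are given as log2 intensity relative to the 75th percentile of the same array, so that 0 is the signal of that percentile and a difference of 1 is 2-fold. Between 69.1% and 81.8% of the spots of an array were well above background. All 9 members were well above background on all 9 arrays with the probe that stands for the gene, so no fold change of a member rests on a bound. A change counted as called when it was at least 2-fold with a limma p under 0.05 after Benjamini-Hochberg adjustment.

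At 1 dpi 6 of the 9 members were called higher than in Ctrl (C1qb, C1qc, C4b, Cfb, Cfp and C3ar1) and 0 lower. Over all genes tested, 11.7% were called higher and 3.08% lower in the same comparison. This balance turned with scaling to the array median, where 1887 genes were called higher and 2303 lower, and 4 members were called higher (without Cfp and C3ar1). At 3 dpi 7 members were called higher, those 6 and C1qa, and 0 lower, against 7.04% and 1.79% of all genes. The members were chosen with earlier results of these data known, so these are not counts for an unselected set. Between 3 and 1 dpi the 3 chains of C1q were called higher at 3 dpi and 0 members lower, against 4.16% and 4.48% of all genes. Over all genes this balance turned too, from 1224 higher and 1318 lower to 1778 and 828 with scaling to the array median and to 1619 and 954 after quantile normalization. C1ra and C3 were called in none of the 3 comparisons. At an unadjusted p under 0.05 from limma there were 7 members for 1 dpi against Ctrl, 8 for 3 dpi against Ctrl and 6 for 3 against 1 dpi, each of them higher at the later time. Over all genes this share was 61.7%, 41.5% and 52.1% in either direction and 37.9%, 23.0% and 24.0% for higher genes alone, so such a p was common in these data. The comparisons with Ctrl share the same 3 Ctrl arrays. The median log2 fold change of the 9 members was 1.17 at 1 dpi and 2.19 at 3 dpi. The scaling left the median of all genes tested at 0.23 for 1 dpi against Ctrl, 0.12 for 3 dpi against Ctrl and -0.08 for 3 against 1 dpi. With these values subtracted, the members' median was 0.95, 2.08 and 0.60. No overlap between the arrays compared was seen for 7 members at 1 dpi, 8 at 3 dpi and 8 for 3 against 1 dpi. Of all genes tested, 67.2%, 47.2% and 65.2% did not overlap, so separation of the arrays alone was common in these comparisons. Ctrl replicate 1 was on a slide and in a scan of its own, and the other 8 arrays were on slide 2. With slide as a block 6, 7 and 3 members were called. That block takes Ctrl replicate 1 out of the fold changes and cannot tell a slide from that array.

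**Figure D1:**
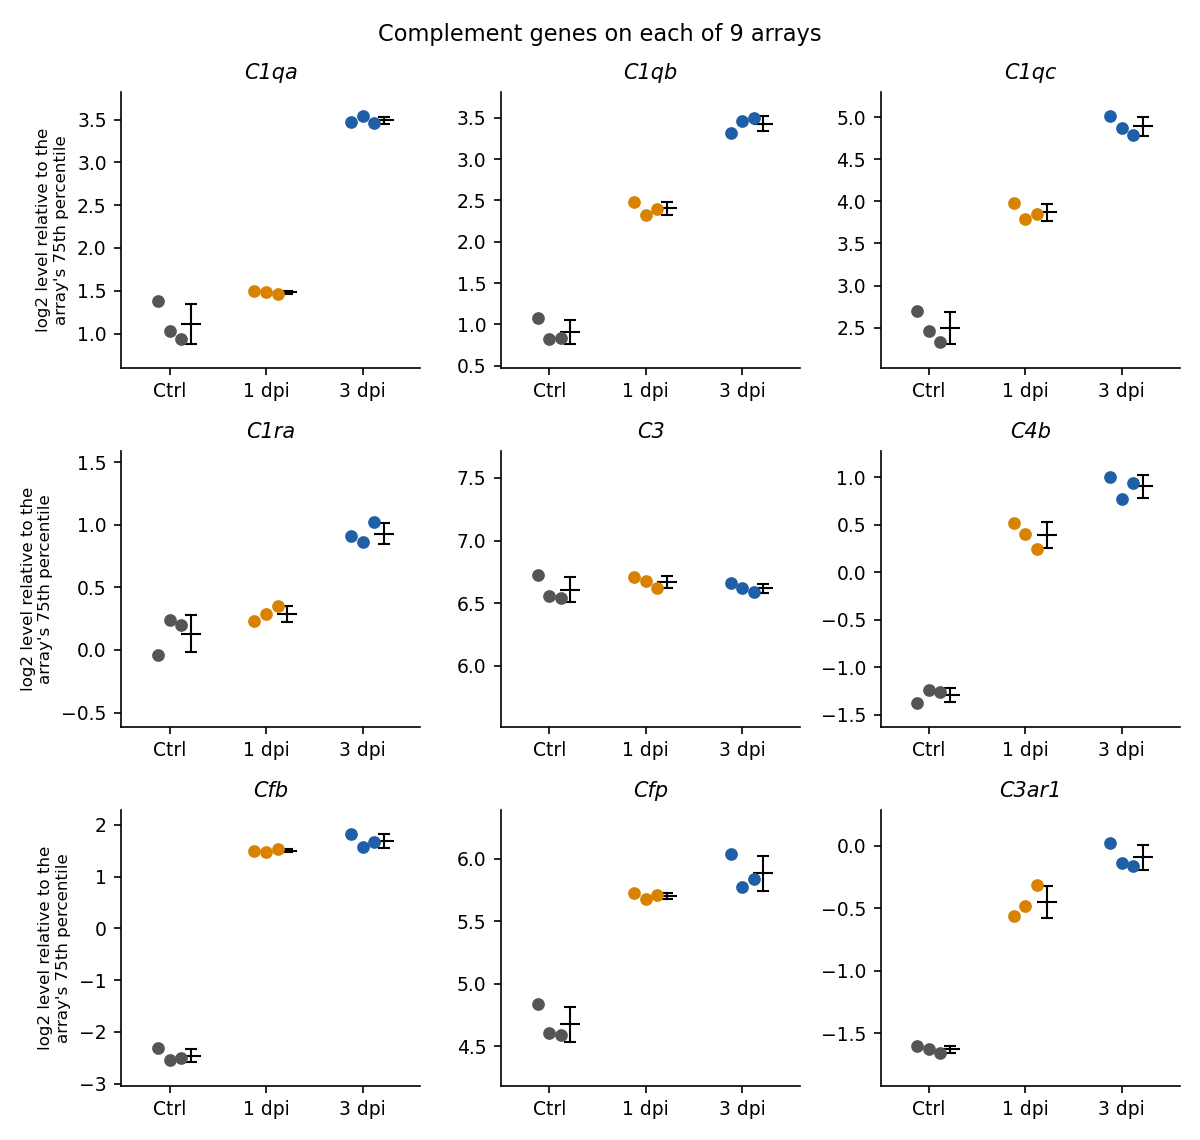
Log2 level of each of the 9 complement genes, relative to the 75th percentile of the array, on the 3 arrays of each group (points), with the group mean and SD (black marks). The Ctrl arrays of Cfb lie between -2.54 and -2.32 and its irradiated arrays between 1.47 and 1.82, whereas the 9 arrays of C3 lie between 6.54 and 6.72.

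The 3 chains of C1q, the recognition molecule of the classical pathway, are encoded by neighbouring genes on chromosome 4. C1qb had a log2 level of 1.08, 0.82 and 0.84 on the 3 Ctrl arrays, 2.48, 2.33 and 2.40 at 1 dpi, and 3.32, 3.47 and 3.50 at 3 dpi. The 3 groups did not overlap, and the order was Ctrl, 1 dpi, 3 dpi. C1qb rose 2.81-fold at 1 dpi (log2 fold change 1.49, SE 0.093, adjusted p = 1.5e-05) and 5.73-fold at 3 dpi (2.52, SE 0.093, adjusted p = 1.1e-06). C1qc had a log2 level of 2.70, 2.46 and 2.33 in Ctrl, 3.98, 3.79 and 3.84 at 1 dpi, and 5.01, 4.87 and 4.79 at 3 dpi. Its groups kept the same order without overlap, with a log2 fold change of 1.37 at 1 dpi and 2.39 at 3 dpi. From 1 to 3 dpi the log2 level of C1qb differed by 1.03 (95% CI 0.81 to 1.24) and that of C1qc by 1.02 (95% CI 0.76 to 1.28), both just past the 2-fold threshold. That call of C1qb was lost after quantile normalization (0.96) and in the authors' deposited values (0.96), and those of both genes after taking the percentile over probes well above background on all arrays (0.97 and 0.97), after normexp with quantile normalization (0.94 and 0.99) and without 1 dpi replicate 2 (0.99 and 0.98). It was also lost for C1qc without 3 dpi replicate 1 (0.96) and for C1qb without 3 dpi replicate 3 (0.99).

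C1qa took another course, with a log2 level of 1.38, 1.02 and 0.94 in Ctrl, 1.50, 1.48 and 1.46 at 1 dpi, and 3.47, 3.54 and 3.46 at 3 dpi. The 1 dpi arrays lay just above the Ctrl arrays and the 3 dpi arrays far above both. The difference of 0.37 at 1 dpi (SE 0.11, adjusted p = 0.024) did not reach 2-fold, and relative to the median of all genes it was 0.14. It was 0.043 with scaling to the array median (adjusted p = 0.87). The adjusted p of C1qa was also over 0.05 with the methods' test (0.098) and without any 1 of Ctrl replicates 2 and 3 and the 3 arrays of 1 dpi (0.055 to 0.070). Other alternatives in limma went the other way. The difference was 0.50 with slide as a block (adjusted p = 0.00040) and without Ctrl replicate 1 (adjusted p = 0.00044). These give the same fold change, since slide 1 holds only that array, and do not count as separate alternatives. After quantile normalization it was 0.42 (adjusted p = 0.0094). This small difference is therefore not settled. At 3 dpi C1qa was 5.19-fold higher than in Ctrl (2.38, SE 0.11, adjusted p = 3.3e-06) and 4.03-fold higher than at 1 dpi (2.01, SE 0.11, adjusted p = 2.0e-05).

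The course of C1qa was therefore also set against the other chains within each array, a comparison chosen after the values were seen that does not depend on the scaling by a constant. Such a difference also carries what sets the probes apart, so only its change between groups is read. The log2 difference of C1qa minus C1qb was 0.30, 0.21 and 0.10 in Ctrl, -0.98, -0.85 and -0.94 at 1 dpi, and 0.14, 0.077 and -0.038 at 3 dpi. It was lower on all 3 arrays at 1 dpi than on any other array, by a mean of -1.13 against Ctrl. The exact two-sided permutation p was 0.10, the smallest that 3 arrays against 3 can give. At 3 dpi it overlapped with Ctrl (exact permutation p = 0.20). C1qa minus C1qc went from a mean of -1.38 in Ctrl to -2.39 at 1 dpi and -1.40 at 3 dpi, while C1qc minus C1qb moved by -0.12 at both times. At 1 dpi this last difference also did not overlap with Ctrl and had the same exact permutation p of 0.10, so the pairs differ in the size of the change and not in p. C1qa is read by a single probe, so whether another part of its transcript took the same course was not tested.

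**Figure D2:**
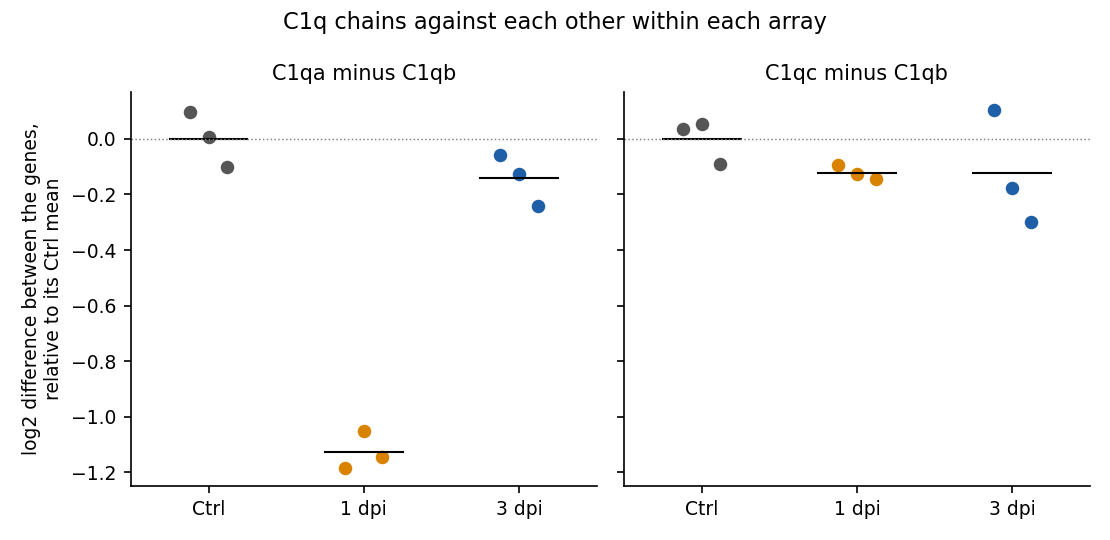
Log2 difference between pairs of C1q genes within each array, relative to its Ctrl mean, for the 3 groups (points are arrays, lines are group means). C1qa minus C1qb lay lower by 1.13 at 1 dpi on average and returned towards Ctrl at 3 dpi, whereas C1qc minus C1qb moved by -0.12 at both times.

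C1ra encodes the protease C1r, which cleaves C1s once C1q has bound. Log2 levels of C1ra were -0.042, 0.24 and 0.20 in Ctrl, 0.23, 0.28 and 0.35 at 1 dpi, and 0.91, 0.86 and 1.02 at 3 dpi. Ctrl and 1 dpi overlapped, and the 3 dpi arrays lay above both. The log2 fold change was 0.16 at 1 dpi (95% CI -0.053 to 0.37) and 0.80 at 3 dpi (95% CI 0.59 to 1.01, adjusted p = 0.00037), under the 2-fold threshold. With scaling to the array median the value at 1 dpi turned to -0.17.

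C4b encodes C4, whose larger fragment binds covalently to surfaces and forms the C3 convertase with C2. Its log2 level was -1.37, -1.24 and -1.26 in Ctrl, 0.52, 0.41 and 0.24 at 1 dpi, and 1.00, 0.77 and 0.94 at 3 dpi. The groups did not overlap. C4b rose 3.20-fold at 1 dpi (1.68, SE 0.095, adjusted p = 9.3e-06) and 4.57-fold at 3 dpi (2.19, SE 0.095, adjusted p = 2.2e-06), and the difference of 0.52 between the times was under 2-fold. A second probe gave 1.42 and 1.71, and its annotation also lists the near-identical gene C4a, so its signal cannot be assigned to C4b alone. This shared probe, at chr17:34866361-34866420 (minus strand) in the mm9 annotation of the array, is shown because it reads both genes:
A_51_P428708: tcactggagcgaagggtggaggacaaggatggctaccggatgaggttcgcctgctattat

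Factor B, encoded by Cfb, is the protease of the alternative pathway convertase and had the largest change among the 9 members at both times. For Cfb the log2 level was -2.32, -2.54 and -2.51 in Ctrl, 1.50, 1.47 and 1.53 at 1 dpi, and 1.82, 1.56 and 1.66 at 3 dpi. All 6 irradiated arrays lay far above the 3 Ctrl arrays. Cfb rose 15.5-fold at 1 dpi (3.96, SE 0.090, adjusted p = 2.2e-07) and 17.6-fold at 3 dpi (4.14, SE 0.090, adjusted p = 1.7e-07). Of the 29410 genes tested, 99.7% had a smaller log2 fold change at 1 dpi and 99.9% at 3 dpi. The difference between 3 and 1 dpi was 0.18 (95% CI -0.028 to 0.39, adjusted p = 0.14). The rise was read by 2 probes that share no bases of the genome, and the second gave 3.22 and 3.45. Both sequences are shown since they carry the largest change. The first covers 357 bases of the minus strand of chromosome 17 with 60 bases (chr17:34993502-34993858, mm9) and so skips bases between its ends, as a probe across an intron does, and the second is contiguous (chr17:34994617-34994676, mm9):
A_51_P413866: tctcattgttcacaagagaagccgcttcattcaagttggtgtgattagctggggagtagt
A_66_P138911: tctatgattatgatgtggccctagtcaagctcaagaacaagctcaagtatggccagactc

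C3 is the protein on which all activation routes converge. Its log2 level was 6.72, 6.56 and 6.54 in Ctrl, 6.71, 6.67 and 6.62 at 1 dpi, and 6.66, 6.62 and 6.59 at 3 dpi. The groups overlapped in each comparison. The log2 fold change was 0.060 at 1 dpi (95% CI -0.10 to 0.22, adjusted p = 0.47) and 0.013 at 3 dpi (95% CI -0.15 to 0.17, adjusted p = 0.89), so a 2-fold change lay outside both intervals. The small value at 1 dpi had no settled direction: it was -0.35 after quantile normalization (adjusted p = 0.0058) and -0.26 with scaling to the array median. Over the 23 alternatives it lay between -0.35 and 0.13, with adjusted p between 0.0017 and 0.79. At 3 dpi it turned to -0.061 and -0.14 under the same alternatives. A second probe of C3 gave 0.20 and 0.067. C3 was called under 0 of the 23 alternatives in limma or the other tests run, and relative to the median of all genes it was -0.17 and -0.10.

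Cfp encodes properdin, which stabilises the alternative pathway convertase. Its log2 level was 4.84, 4.60 and 4.59 in Ctrl, 5.72, 5.67 and 5.71 at 1 dpi, and 6.04, 5.77 and 5.84 at 3 dpi. Irradiated and Ctrl arrays did not overlap. Cfp rose 2.03-fold at 1 dpi (1.02, SE 0.096, adjusted p = 0.00011) and 2.30-fold at 3 dpi (1.20, SE 0.096, adjusted p = 5.6e-05). The call at 1 dpi was at the edge of the fold threshold. It was lost after quantile normalization (0.78), scaling to the array median (0.70) and normexp background correction with quantile normalization (0.77), and also without Ctrl replicate 2 (0.99) or Ctrl replicate 3 (0.98). A second probe gave 1.44 and 1.41, and it is the probe that stands for Cfp in the authors' deposited values (1.45 and 1.39).

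C3ar1 encodes the receptor for C3a. Its log2 level was -1.60, -1.62 and -1.65 in Ctrl, -0.56, -0.48 and -0.31 at 1 dpi, and 0.021, -0.14 and -0.16 at 3 dpi. The groups did not overlap. C3ar1 rose 2.26-fold at 1 dpi (1.17, SE 0.084, adjusted p = 3.0e-05) and 2.89-fold at 3 dpi (1.53, SE 0.084, adjusted p = 7.8e-06). At 1 dpi the call was lost with scaling to the array median (0.85) and with normexp and quantile normalization (0.95).

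**Figure D3:**
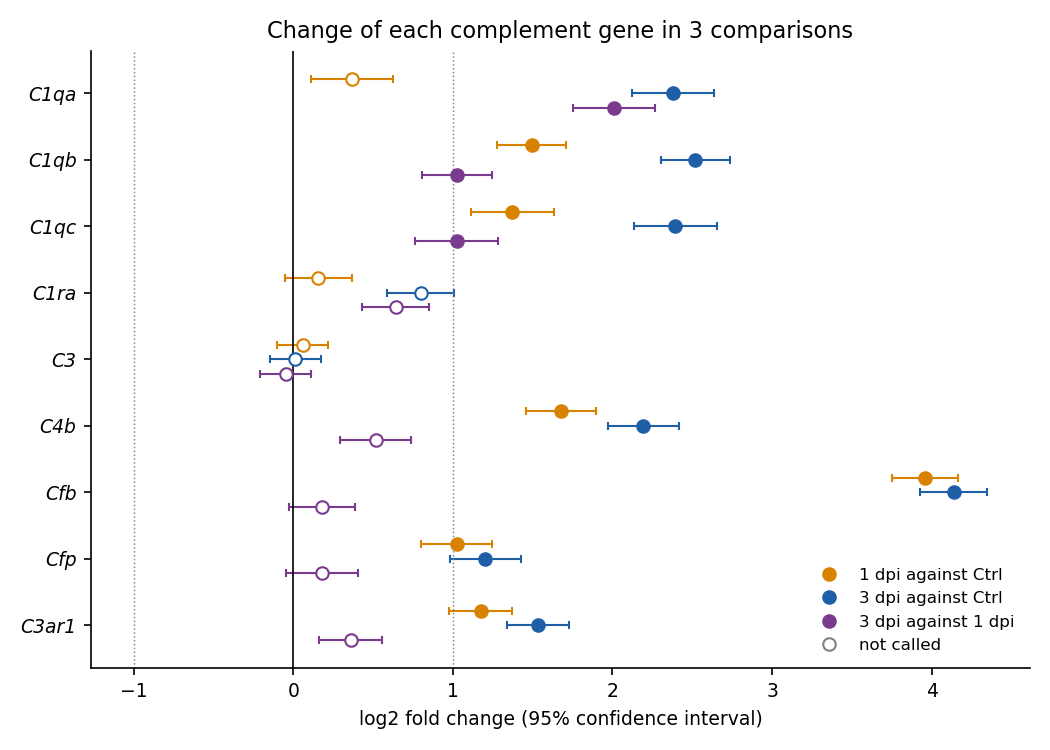
Log2 fold change of each complement gene with its 95% confidence interval from limma, in 3 comparisons (filled points were called, open points were not, and dotted lines mark 2-fold). Cfb lies at 3.96 and 4.14 against Ctrl, C3 lies at 0.060 and 0.013, and the comparison of 3 with 1 dpi is past 2-fold for C1qa, C1qb and C1qc.

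In all, 14 probes read the 9 members, and 5 members had 2 probes. The probes of C3, C4b, Cfb and Cfp were on the same side of the 2-fold threshold in each comparison with Ctrl. For C1qc they disagreed. Its second probe, which is annotated to an Ensembl transcript and was well above background on 2 of 3 Ctrl arrays, gave 0.49 at 1 dpi (adjusted p = 0.070) and 0.42 at 3 dpi (adjusted p = 0.15). With the mean of both probes C1qc kept its call at 3 dpi (1.41) and lost it at 1 dpi (0.93) and between the times (0.48).

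Promoter windows of RefSeq (assembly GRCm38.p6, 250 bases before to 50 after the start site) were found for 6 of the 9 members, namely C1qb, C1qc, C1ra, C3, Cfp and C3ar1. They were searched on both strands for TTCNNNGAA (the interferon-gamma activated site), the interferon-stimulated response element, GAGGAA (the core bound by PU.1, a factor of myeloid cells) and the NF-kappaB consensus. GAGGAA was held by 4 of the 6 windows (C1qb, C1qc, C1ra and Cfp) and by 28.3% of 32841 windows of all genes. TTCNNNGAA was found in 1 (C1ra, after the start site) and in 8.30% of all windows, the NF-kappaB consensus in 1 (C1qc) and in 4.51%, and the interferon-stimulated response element in 0 and in 3.44%. A match is a description of letters and says nothing about binding. The windows of C1qb and C1qc, which rose at both times, of Cfp, and of C3, which was not called, are printed 5' to 3' on the gene's strand, all of them minus, with matches in capitals. C1qb lies at chr4:136886151-136886450, C1qc at chr4:136892865-136893164, Cfp at chrX:20931506-20931805 and C3 at chr17:57228087-57228386. In C1qb the capitals mark GAGGAA from -30 to -25. In C1qc they mark the reverse complement of GAGGAA from -193 to -188 and the NF-kappaB consensus from -41 to -32, and in Cfp the reverse complement of GAGGAA from 7 to 12 and from 23 to 28, counted from the start site as 1:
C1qb: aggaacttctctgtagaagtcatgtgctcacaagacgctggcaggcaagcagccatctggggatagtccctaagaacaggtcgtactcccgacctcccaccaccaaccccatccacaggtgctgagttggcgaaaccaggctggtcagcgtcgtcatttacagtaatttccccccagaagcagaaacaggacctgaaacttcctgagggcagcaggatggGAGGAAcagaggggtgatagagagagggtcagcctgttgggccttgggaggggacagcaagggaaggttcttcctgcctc
C1qc: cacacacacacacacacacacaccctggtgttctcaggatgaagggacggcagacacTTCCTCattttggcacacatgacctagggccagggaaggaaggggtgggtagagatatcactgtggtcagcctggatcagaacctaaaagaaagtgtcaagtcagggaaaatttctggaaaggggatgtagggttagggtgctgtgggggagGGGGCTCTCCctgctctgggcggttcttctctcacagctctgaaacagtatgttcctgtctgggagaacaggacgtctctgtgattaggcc
Cfp: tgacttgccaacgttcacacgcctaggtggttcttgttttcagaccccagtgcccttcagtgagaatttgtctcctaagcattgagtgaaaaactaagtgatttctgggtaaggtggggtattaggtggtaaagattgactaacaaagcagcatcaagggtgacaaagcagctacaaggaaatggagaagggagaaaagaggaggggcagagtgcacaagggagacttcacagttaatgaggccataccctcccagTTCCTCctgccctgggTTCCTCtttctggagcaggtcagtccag
C3: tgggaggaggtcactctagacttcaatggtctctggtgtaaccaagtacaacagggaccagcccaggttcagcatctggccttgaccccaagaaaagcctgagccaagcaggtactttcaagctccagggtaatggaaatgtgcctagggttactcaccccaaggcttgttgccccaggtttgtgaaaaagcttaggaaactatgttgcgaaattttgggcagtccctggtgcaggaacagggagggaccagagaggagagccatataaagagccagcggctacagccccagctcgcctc

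Other genes with a similar course were sought by the root mean square difference of the 9 log2 values, each relative to the gene's Ctrl mean, among 23998 genes well above background on all 9 arrays. The nearest to C1qb were Plxdc2 (0.091), Osmr (0.10), Adgrf5 (0.13), Thrsp (0.14), Yap1 (0.145) and Rpl39l (0.15). Their log2 fold changes lay between 1.51 and 1.71 at 1 dpi and between 2.33 and 2.63 at 3 dpi. Among the members, C1qc was at 0.145 from C1qb and C4b at 0.26, while C1qa was at 0.66. The nearest to C3 were Blmh (0.022), Arfrp1 (0.034), a transcript named NAP114785-1 on the array (0.035), Norad (0.036), Glrx5 (0.036) and Atp5a1 (0.037). Their log2 fold changes lay between 0.02 and 0.10 at 1 dpi and between -0.03 and 0.04 at 3 dpi.

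Of 49 other complement genes, 40 were tested, and their changes were not recomputed under other scalings. Among 11 other components of the classical and lectin pathways, 2 passed as higher and 1 as lower at 1 dpi, while at 3 dpi 3 passed as higher and 0 as lower, with a median log2 fold change of 0.12 and 0.77 (-0.11 and 0.65 relative to all genes). C2, the partner of C4 in the convertase, was at 0.11 at 1 dpi (adjusted p = 0.30) and rose 5.53-fold at 3 dpi (2.47, SE 0.085). C1s1 and C1s2, near-identical genes for C1s whose signals may not be separable, rose at 3 dpi by 1.76 and 2.02, although the other probes of C1s1 were not called and went down to 0.20. C4a was called at 1 dpi (1.06), from a dim level of -5.05 in Ctrl. Fcna, a ficolin of the lectin pathway, fell by 2.27 at 1 dpi (adjusted p = 6.1e-07) and was 9.28-fold higher at 3 than at 1 dpi, with 0.94 against Ctrl at 3 dpi. Masp2, the protease that ficolins activate, was called higher at 1 dpi (2.12, second probe 0.93, well above background on 2 of 3 Ctrl arrays) and was lower at 3 than at 1 dpi (-1.45). Fcnb, the brightest of the list, was at 0.12 and 0.15 (0.39 and 0.58 for its second probe).

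Among 6 other components of the alternative and terminal pathways, 2 were called higher at 1 dpi, 2 at 3 dpi and 0 lower, with medians of 0.68 and 0.63 (0.46 and 0.51 relative to all genes). Cfd encodes factor D, which cleaves factor B, and rose 2.39-fold at 1 dpi (1.26, SE 0.32) and 3.92-fold at 3 dpi (1.97, SE 0.32). Hc, the gene of C5, was called at 1 dpi (1.51) and not at 3 dpi (0.60), from a dim level of -4.49 in Ctrl. C6, of the membrane attack complex, was called at 3 dpi (1.53, adjusted p = 0.016), with 2 of 3 Ctrl arrays and 1 of 3 arrays at 1 dpi well above background. C8g, the brightest of the list, was at -0.12 and -0.30. Between 3 and 1 dpi the list's median was 0.21, and -0.09 with C9, which was not well above background at 1 dpi, set to no change.

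Of 12 tested regulators, 2 were called higher at 1 dpi and 6 at 3 dpi, with 0 lower, and the median was 0.15 and 0.87 (-0.08 and 0.75 relative to all genes). Serping1 encodes the C1 inhibitor, which stops C1r and C1s, and rose 2.92-fold at 1 dpi (1.55, SE 0.15) and 8.05-fold at 3 dpi (3.01, SE 0.15, adjusted p = 4.8e-06). Susd4 rose at both times (1.69 and 3.38), from a dim log2 level of -5.35 in Ctrl and with 1 of its 2 probes kept. Clu, which binds the terminal complex, rose at 3 dpi (1.48). Csmd1 was called at 3 dpi (2.34), but its 2 probes disagreed (-0.15 for the other) and it was well above background on 2 of 3 Ctrl arrays. It was at least 2.45-fold higher at 3 than at 1 dpi, where it was not well above background. This bound sets the bright group's mean against the higher of the probe's own signal and the lowest signal well above background on each array of the dim group. Other regulators sit on the cell membrane. Cd55, which speeds the decay of convertases, was at -0.44 at 1 dpi (adjusted p = 0.0014, not 2-fold, other probes up to 0.15) and -0.07 at 3 dpi. Cr1l, the mouse regulator also called Crry and the brightest of the list, was at -0.18 and -0.09, with adjusted p of 0.14 and 0.48 (other probes from -0.64 to 0.08 at 1 dpi). Cd59a, which blocks the membrane attack complex, was at -0.54 and 0.73, not 2-fold against Ctrl, and rose by 1.27 between 1 and 3 dpi (0.91 for its second probe), while Cd59b was called at 3 dpi (1.02).

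Among 11 receptors and binding proteins, 1 passed as higher and 1 as lower at 1 dpi, while at 3 dpi 2 passed as higher and 1 as lower, with a median of 0.31 and 0.24 (0.08 and 0.12 relative to all genes). With Vsig4, which was not well above background at 1 dpi, set to no change, the median at 1 dpi was 0.10. Lrp1, an uptake receptor, rose 2.56-fold and 4.60-fold, and its 3 probes ranged from 1.03 to 2.20 in log2 at 3 dpi, all called. Cr2, a receptor of B cells for C3 fragments, fell by 1.14 and 1.11, and its 3 probes ranged from -2.95 to -0.53 at 1 dpi. Vsig4, a C3 fragment receptor of resident macrophages, was called at 3 dpi (1.58, with 2 of 3 Ctrl arrays well above background) and was at least 2.27-fold higher at 3 than at 1 dpi, where it was well above background on 0 of 3 arrays. C5ar1, the receptor for C5a, was at 0.76 and 0.45, not 2-fold. Itgam and Itgb2, the chains of complement receptor 3, were at -0.19 and -0.001 at 1 dpi and at -0.08 and 0.05 at 3 dpi, and the second probe of Itgam was at 0.38 at 1 dpi. Calr, the brightest of the list, was at 0.96 and 0.38.

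**Figure D4:**
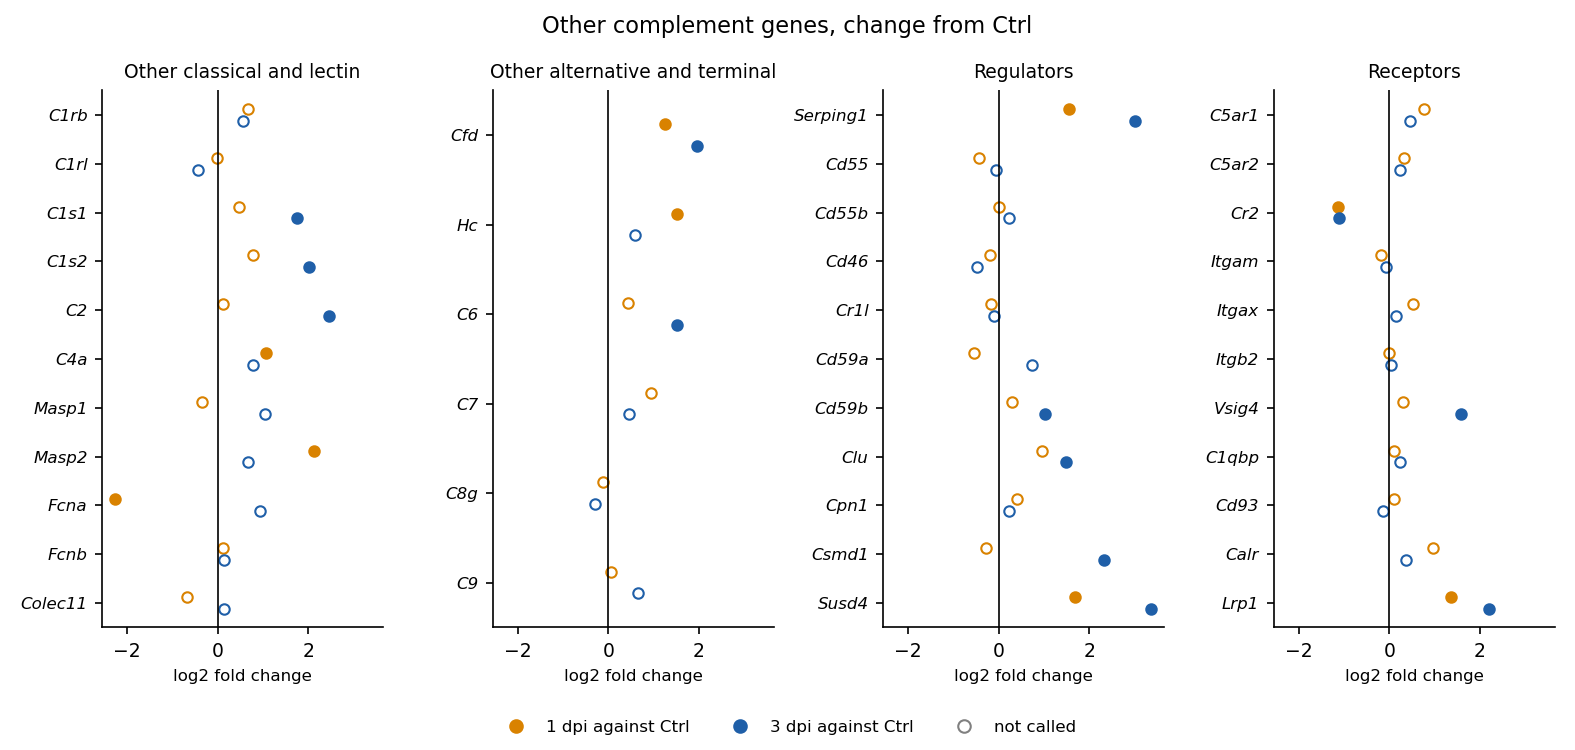
Log2 fold change from Ctrl at 1 and 3 dpi of tested complement genes outside the 9 members, by role (filled points were called, and 1 tested regulator is not shown). Susd4, which was dim in Ctrl (-5.35), lies at 3.38 and Serping1 at 3.01 at 3 dpi, and Fcna lies at -2.27 at 1 dpi.

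The labelled cell type was checked against its markers, and other cell types of marrow were followed with lists of known markers. The changes and sums of these lists were not recomputed under other scalings. Among the members the bright gene C3 moved from 0.060 to -0.35 at 1 dpi after quantile normalization. The order of the groups in sums that rest on bright genes is therefore not settled. Of 15 megakaryocyte markers, all were tested and 0 were called in the 3 comparisons by limma. At an unadjusted p under 0.05 there were 8 at 1 dpi, 7 at 3 dpi and 10 between the times, against 61.7%, 41.5% and 52.1% of all genes. Their summed level was 192, 172 and 170 in Ctrl, 187, 173 and 171 at 1 dpi, and 201, 199 and 197 at 3 dpi, in units of the array's 75th percentile. Pf4, the brightest of them, was at 0.073 and 0.012, Itga2b, which encodes CD41, at 0.67 and -0.025, and Gp9 at 0.44 and 0.93. In Ctrl the mean summed level was 178 for megakaryocyte markers, 503 for macrophage and monocyte markers and 1548 for neutrophil markers. The mean log2 level in Ctrl was 6.53 for Pf4, 8.22 for the neutrophil gene Mpo and 7.85 for the macrophage and monocyte gene Lyz2. Lists differ in length and probes, so such sums do not give shares of cells.

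Of 17 macrophage and monocyte markers, all tested, 5 passed as higher and 1 as lower at 1 dpi, while at 3 dpi 11 passed as higher and 0 as lower, with a median of 0.45 and 1.46 (0.23 and 1.35 relative to all genes). Their summed level was 497, 511 and 502 in Ctrl, 819, 769 and 768 at 1 dpi, and 660, 603 and 648 at 3 dpi. Lyz2 and Ly6c2, looked at after the values were seen, made up between 65.8% and 84.2% of this sum. The other 15 markers summed to 97.8, 88.8 and 86.5 in Ctrl, 129, 126 and 131 at 1 dpi, and 214, 206 and 205 at 3 dpi, so the whole list was highest at 1 dpi and these 15 at 3 dpi. The brightest marker, Lyz2, was at 0.73 and 0.11, and its second probe was at -0.39 at 1 dpi. Cd68 rose by 1.34 and 1.80, and Csf1r by 1.05 at 3 dpi, where its second probe was not called (0.64). Cd163, the marker called lower, was at -2.09 at 1 dpi (adjusted p = 0.00016) and at 0.75 at 3 dpi, and it rose by 2.83 between the times. Mrc1 was at -0.56 at 1 dpi, not 2-fold, and rose by 2.20 at 3 dpi. Mertk, an uptake receptor for dying cells, was at 0.45 at 1 dpi and rose by 1.91 at 3 dpi, and Cd5l was at 0.59 and rose by 1.83. Adgre1, which encodes F4/80, was at -0.23 and 0.50, under 2-fold, and its second probe had the opposite sign at both times (0.17 and -0.14). Each of the 17 markers was well above background on all Ctrl arrays. More transcript in mMKs and more transcript from other cells cannot be told apart in these bulk samples, nor can fewer cells of a type and less RNA per cell, and the part of macrophage RNA in the changes of C1q, C3ar1 and Cfp was not tested.

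Many stromal and endothelial markers rose too, but not all of them. Of 12 stromal markers 8 were called higher at each time and 0 lower, with a median of 1.48 at 1 dpi and 3.50 at 3 dpi (1.26 and 3.39 relative to all genes). Their summed level was 15.2, 14.5 and 15.3 in Ctrl, 72.9, 63.2 and 68.8 at 1 dpi, and 141, 128 and 139 at 3 dpi. The brightest, Cxcl12, rose by 2.69 and 3.50, while Pdgfrb was at -0.43 and -0.38, not 2-fold. The probe that stands for Lepr was called at 1 dpi (1.37) but not at 3 dpi (0.43). All 5 probes of Lepr ranged from 0.69 to 2.08 at 1 dpi, with 2 called, and from 0.43 to 4.08 at 3 dpi, with 4 called. Of 8 endothelial markers 4 were called higher at 1 dpi and 6 at 3 dpi, with 0 lower and a median of 0.89 and 2.04 (0.67 and 1.92 relative to all genes). Their summed level was 4.12, 3.68 and 3.78 in Ctrl, 7.75, 6.80 and 7.22 at 1 dpi, and 15.2, 12.6 and 13.0 at 3 dpi. Cdh5 rose by 1.71 and 2.41, and the brightest of the list, Stab2, was at 0.51 (other probes up to 1.13) and rose by 2.07. Tek was at -0.93 and 0.02 and Tie1 at 0.15 and -0.28, and neither was called. The part of stromal and endothelial RNA in the changes of C4b, Cfb and Serping1 was not tested.

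Other lists moved in other ways. Of 11 neutrophil markers 1 was called higher at 1 dpi and 0 at 3 dpi, with medians of 0.52 and 0.03 (0.29 and -0.09 relative to all genes), and 8 and 3 had an unadjusted p under 0.05, against 61.7% and 41.5% of all genes. Their summed level was 1501, 1577 and 1567 in Ctrl, 2604, 2445 and 2413 at 1 dpi, and 1675, 1502 and 1591 at 3 dpi, so the 1 dpi arrays lay above all others. The brightest, Mpo, was at 0.90 at 1 dpi (0.23 for its second probe). The part of neutrophil RNA in the change of Cfp was not tested. Of 10 B cell markers 9 were called lower at each time, with medians of -3.84 and -3.30, and the brightest, Cd79b, fell by 1.30 and 1.51. Of 8 T and NK cell markers 1 was called higher at 1 dpi and 3 at 3 dpi, with Nkg7, the brightest, at 0.42 and 0.11. Of 8 erythroid markers tested, 1 passed as higher and 6 as lower at 1 dpi, while at 3 dpi 0 passed as higher and 6 as lower, while the brightest, Hba-a1, rose by 1.32 and then fell by 1.47 against Ctrl. Of 7 dendritic cell markers tested, 2 passed as higher and 2 as lower at 1 dpi, while at 3 dpi 0 passed as higher and 1 as lower, with Siglech, the brightest, at 1.06 (other probes down to -1.63) and 0.13. Siglech varied between the Ctrl arrays (SD 0.66). The dendritic sum in Ctrl was 33.4, 53.1 and 54.6 with Siglech and 15.3, 13.8 and 14.0 without it, so Ctrl replicate 1 was low in Siglech. The value of Siglech without that array is not reported. In Ctrl, at 1 dpi and at 3 dpi the mean summed level was 43.7, 8.27 and 8.15 for B cell markers, 43.1, 58.2 and 47.7 for T and NK cell markers, 134, 297 and 49.4 for erythroid markers, and 47.0, 88.9 and 50.8 for dendritic cell markers. Over the arrays the brightest gene made up on average 62.7%, 92.3%, 89.9% and 68.6% of these sums. Without it they were 27.3, 1.64 and 2.40 for B cell markers, 2.83, 4.48 and 4.17 for T and NK cell markers, 17.7, 5.53 and 7.55 for erythroid markers, and 14.3, 24.7 and 17.2 for dendritic cell markers, so the erythroid sum rose at 1 dpi with Hba-a1 and fell without it.

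**Figure D5:**
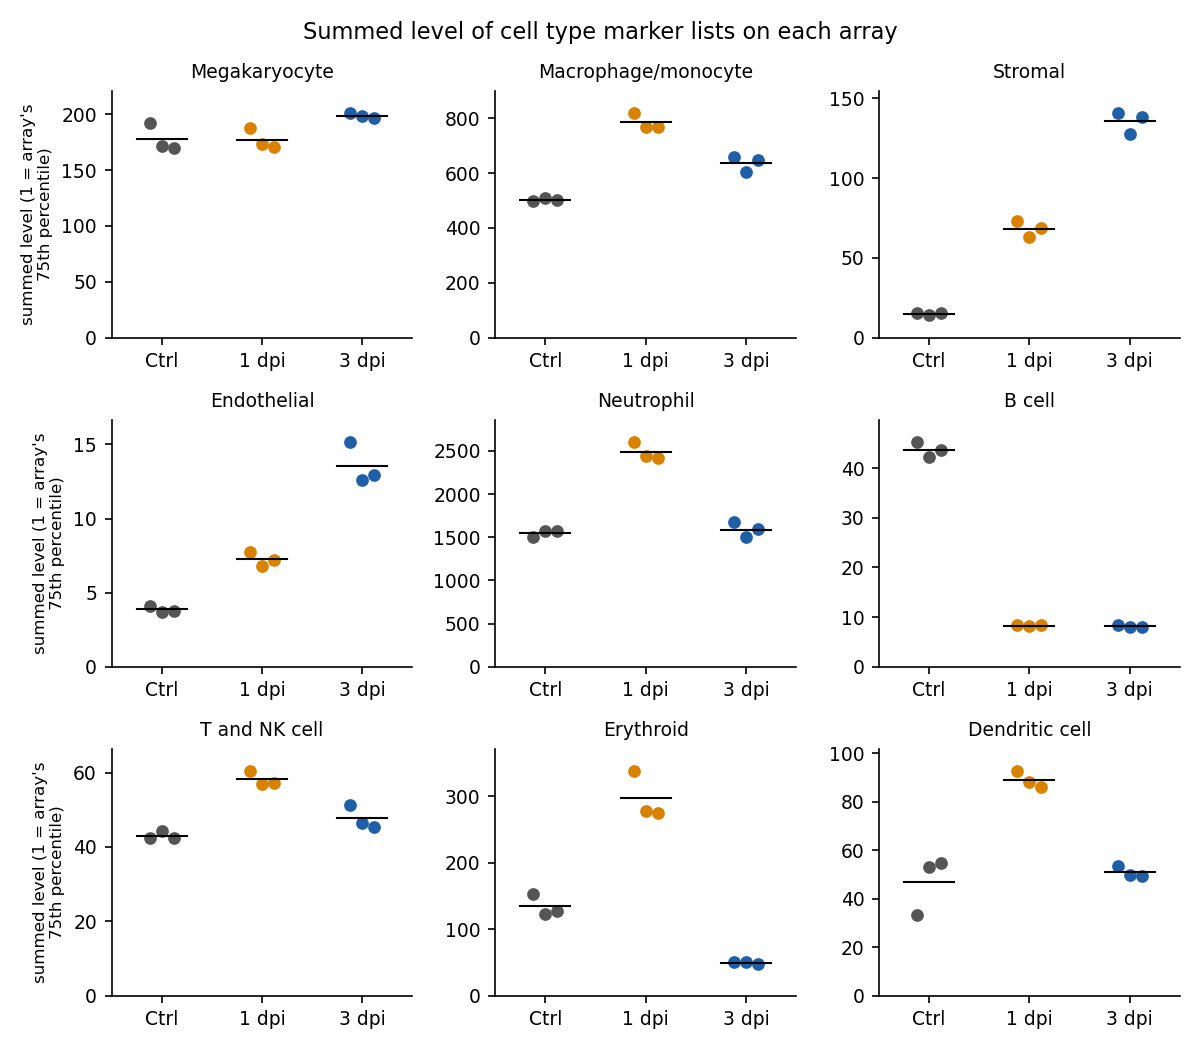
Summed linear level of the markers of 9 cell types on each array, where 1 is the array's 75th percentile (points are arrays, lines are group means). Stromal and endothelial sums are highest at 3 dpi, macrophage and monocyte sums are highest at 1 dpi (at 3 dpi without Lyz2 and Ly6c2), and megakaryocyte sums lie between 170 and 201. The sums were not recomputed under other scalings.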

How the data were processed

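Gene expression of samples enriched for mature megakaryocytes was measured on 9 Agilent 1-colour arrays with 60-base probes, 3 each for Ctrl, 1 dpi and 3 dpi. Per the file headers, Feature Extraction 10.7.1.1 gave each spot a background-subtracted, detrended intensity with no scaling between arrays. The study's methods describe another array maker, and its results text another assay, while the files are Agilent. The authors also deposited a log2 matrix of 27275 gene names. Of these, 27021 were tied to 1 probe within 0.1 log2. Its columns are not centred, with medians of 5.84, 5.84 and 5.83 (Ctrl), 5.80, 5.80 and 5.79 (1 dpi) and 5.86, 5.86 and 5.87 (3 dpi). Its fold changes differed from those of the same 20035 probes after quantile normalization by a median of 0.00071, 0.00047 and 0.0012 log2 in the 3 comparisons, against 0.25, 0.090 and 0.15 for the main scaling. How its rows were chosen is not stated.

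Each array held 62976 spots, of which 3671 control spots were left out, as were between 79 and 149 outlier spots per array, and 20 probes were left out as outliers. Spots of a probe were averaged, giving 56605 probes, of which 32994 were named through RefSeq accessions and 23611 kept the name in the file. The log2 intensity minus the 75th percentile of the array was used. That percentile was 9.52, 10.12 and 10.15 (Ctrl), 8.85, 8.96 and 8.94 (1 dpi) and 9.85, 10.04 and 10.02 (3 dpi). A probe was kept (44300 in all) if some group had it well above background on each of its 3 arrays, and the probe with the highest mean stood for its gene (29410 genes). The 3 groups were fitted together with limma 3.58.1 in R 4.3.3 (data.table version 1.17.8), two-sided, with Benjamini-Hochberg adjustment over all genes tested. The fit was tested on simulated data. Single within-array differences were compared by exact permutation. Figures were drawn with Python 3.11.15 and matplotlib 3.10.9. The number of arrays limits the precision.

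The 9 members and the lists were chosen with earlier results of these data known. The lists hold other classical and lectin components, alternative and terminal components, regulators, receptors, and markers of megakaryocytes, macrophages and monocytes, stromal cells, endothelium, neutrophils, B cells, T and NK cells, erythroid cells and dendritic cells. Genes named are all members, every other complement gene called in at least 1 comparison but 1 that is not reported, Cd55, Cd59a, Cr1l, Serping1, C5ar1, Itgam and Itgb2 in any case, Itga2b, Gp9, Pf4, Adgre1, Csf1r, Cd68, Mertk, Cd5l, Cxcl12, Lepr and Cdh5, the brightest gene of each list, and the 6 genes nearest to C1qb and to C3. C9, Ly6c2, Cd163, Mrc1, Pdgfrb, Tek and Tie1 were named after their values were seen. Alternatives were quantile normalization, the array median, the percentile over probes well above background on all arrays, normexp with quantile normalization, the authors' matrix, other probe filters, the mean of a gene's probes, no minimum fold, an intensity trend, the methods' test, replicate and slide blocks, and leaving out each array.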

Additional observations from a re-analysis of the deposited data

Results flagged for a closer look

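The comparison of 3 with 1 dpi tests directly whether the change from Ctrl differs between the times, and it passed for the 3 chains of C1q. The log2 level of C1qa was higher at 3 dpi by 2.01 (adjusted p = 2.0e-05), that of C1qb by 1.03 (adjusted p = 0.00016) and that of C1qc by 1.02 (adjusted p = 0.00034). The 3 arrays of 3 dpi lay above the 3 arrays of 1 dpi in each of them. Over all genes tested, 65.2% did not overlap in this comparison and 4.16% were called higher (1224 genes, against 1778 with scaling to the array median and 1619 after quantile normalization). C1qb was called under 17 of 23 alternatives and C1qc under 18, and the second probe of C1qc was at -0.067 between the times. Single arrays far from the others were not tested for, since each group holds 3 arrays. The cause of these differences was not tested.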

How the results depend on the processing

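Over 23 alternatives, 580 of 621 values of members kept their direction and side of the threshold, 19 lost the call, 5 gained it and 17 turned. The intensity trend, the methods' test, the replicate block and no minimum fold leave each fold change as it was, so no direction could turn under them. The other probe filters also left the members' fold changes as they were. The 580 is therefore not a count of independent checks. At 3 dpi against Ctrl the 7 members were called under each alternative, and 8 with no minimum fold. C3 at 1 dpi turned to -0.35 (quantile), -0.26 (array median), -0.33 (normexp with quantile) and -0.35 (authors' table), and C1ra to -0.17 (array median). C3 at 3 dpi turned to -0.061, -0.14, -0.072 and -0.062 under the same 4 alternatives, and lay between -0.021 and 0.071 with 1 array left out. Between 3 and 1 dpi C3 turned to 0.29, 0.13, 0.26 and 0.29, and Cfp to -0.056 in the authors' table, which reads Cfp with its second probe (-0.033 in the main scaling). The authors' table and quantile normalization nearly repeat each other. Slide as a block and leaving out Ctrl replicate 1 give the members the same fold changes, since that array is alone on its slide. Genes called were 1667, 1147 and 1088 with normexp and 16275, 9391 and 13016 with no minimum fold. Members called between 3 and 1 dpi were 1 with the percentile over probes well above background on all arrays, 1 with normexp and 6 with no minimum fold. Leaving out 1 array gave 3543 to 5247, 2369 to 2790 and 2231 to 2810 genes, and 5 to 6, 7 to 7 and 1 to 3 members, where 1 was without 1 dpi replicate 2. Among genes called at 1 dpi, 79.2% were higher, against 56.3% (quantile), 45.0% (array median), 68.7% (normexp) and 50.3% (authors' table). Between 3 and 1 dpi this was 48.2%, against 62.9% (quantile), 68.2% (array median) and 64.1% (authors' table), and 34.5% with no filter on dim probes. At 3 dpi it was 79.7%, against 68.8% in the authors' table. With no minimum fold it was 60.4% at 1 dpi and 53.5% at 3 dpi. The methods' test called 3866, 2557 and 2665 genes unadjusted and 3303, 2210 and 2464 after Benjamini-Hochberg, with 6, 7 and 3 members. The replicate block gave 4186, 2505 and 2455 genes and slide as a block 3505, 2371 and 2747, both with 6, 7 and 3 members. The cause was not tested.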
